A study of Homo sapiens with 5 samples.

Results

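The experiment described here targeted NEDD9, which encodes a scaffold protein, in A549 cells with 2 different short hairpins. It takes up 3 of the 5 arrays of its series. Arrays were chosen by their titles: the A549 control (n = 1), shNEDD9 #1 (hairpin 1) and shNEDD9 #2 (hairpin 2), which together form a knockdown group of n = 2. A549 is an established human lung adenocarcinoma line with loss of function of the kinase LKB1 (gene STK11), a defect that all 3 arrays share, and the submitters describe its NEDD9 expression as increased. The other arrays of the series come from CRL-5907, a lung cancer line that the submitters list as wild type for LKB1 and low in NEDD9. One is its control (n = 1) and the other carries NEDD9 overexpression (n = 1). The labels do not say whether the A549 control carried a hairpin construct, how long the hairpins acted, or whether the arrays stem from separate cultures. The hairpin sequences are not used here.

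NEDD9 (also called HEF1 or CAS-L) is a docking protein of the Cas family. Focal adhesion kinase and SRC phosphorylate it after integrin engagement, and it then recruits CRK and DOCK proteins, which activate RAC and promote cell movement. It is also found at centrosomes, where it binds and activates the mitotic kinase Aurora A and takes part in ciliary disassembly. In lung cancer NEDD9 is known as a gene held down by LKB1 and as a promoter of metastasis. The comparison asks which transcripts differ from control in the same direction with both NEDD9 hairpins.

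Values are normalised log2 expression levels, so a difference of 1 is a doubling. The 14432 features with exactly 1 gene symbol gave 14232 genes. A gene passed the level filter when its brightest A549 array lay above that array's median over the named genes (5.81 on the control array, 5.86 with hairpin 1 and 5.85 with hairpin 2), and 7435 genes did so. A value below the median of its array was not shown to exceed background. Where 3 levels follow a gene name they are those of the control, hairpin 1 and hairpin 2 arrays in that order, and genes counted as higher or lower on a list are so with both hairpins. Mean differences are given ± SD over the 2 hairpins. Both subtract the same control array, so that SD holds no error of the control array. For any single gene, a deviation of the 1 control array and an effect shared by the hairpins cannot be told apart.

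The NEDD9 level was 8.94 on the control array, 8.35 with hairpin 1 and 8.52 with hairpin 2. Both hairpin arrays lay below the control and far above the CRL-5907 control, where NEDD9 was at 4.66. The transcript was thus 33.4% lower with hairpin 1 and 24.8% lower with hairpin 2, a mean log2 difference of -0.50 ± 0.13 (SD, n = 2), which limma did not call (adjusted p = 0.369). The NEDD9 difference passed 1.5-fold with hairpin 1 but not with hairpin 2, and NEDD9 protein was not measured. STK11 stood at 6.23 on the control array, 6.11 with hairpin 1 and 6.13 with hairpin 2. The cell type label was compared with markers. All 13 measured markers of A549 and lung adenocarcinoma lay above the array median on each A549 array, with median levels of 10.6 to 10.75. All 13 also did so on the CRL-5907 control and overexpression arrays, at medians of 9.03 and 8.82. The count therefore does not tell A549 from CRL-5907. Of 17 leukocyte markers 2 to 3 lay above the median, and of 11 fibroblast and 11 endothelial markers 1 each. The summed level of the leukocyte list was 10.11 (log2) on the control array, 10.16 with hairpin 1 and 10.05 with hairpin 2. Its member LYZ, lysozyme, also made by secretory epithelia, was at 3.55, 5.55 and 5.34, below the array median on all 3. The fibroblast sums were 8.09, 8.02 and 8.04.

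Genes that were higher with both hairpins outnumbered those that were lower. Among all 14232 genes, 113 (0.794%) exceeded the control 1.5-fold or more on both hairpin arrays and 43 (0.302%) lay 1.5-fold or more below it on both. Among the 7435 genes past the level filter the counts were 51 higher (0.686%) and 10 lower (0.134%). limma, fitted with 1 residual degree of freedom over all named genes, called 0 of 14232 (0%) at an adjusted p under 0.05, with a lowest adjusted p of 0.276. At an unadjusted p under 0.05 it listed 2220 genes, 1377 higher and 843 lower. No gene therefore passed a test, and the counts describe 3 arrays. In genes counted or named for a shared difference, the control is the lowest or highest array by that choice. Its position in such genes is no separate result. Of the 51 higher genes 25 lay below the array median on the control and entered through a hairpin array, so their counts carry the filter as well as the difference.

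The excess of higher genes went with expression level. In the dimmest of 4 equal groups by level the median difference was 0 with both hairpins, and in the brightest it was 0.12 with hairpin 1 and 0.06 with hairpin 2. In that brightest group 59.9% of genes were higher with both hairpins while 16.2% were lower, against 39.6% and 27.7% of all genes. In the dimmest group 21.6% were higher and 31.5% lower, and in the next 27.5% and 38.6%. Counts for the matrix, Hedgehog, and neural and synaptic lists, with median levels of 5.44, 5.26 and 5.11, stand beside these shares, and the WNT list had a median level of 5.90. For genes past the filter the medians were 0.10 and 0.04, and 53.8% and 21.4% were higher and lower with both. The higher genes made up 83.6% of the 61 counted past 1.5-fold, but 70.7% after a further quantile normalization (41 higher and 17 lower) and 73.2% once the trend with level was removed (41 and 15). Just inside the threshold lay ASF1B, with a smaller difference of 0.59 and a larger one of 0.76. TMEM17, just outside it, had 0.62 and 0.58.

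**Figure D1:**
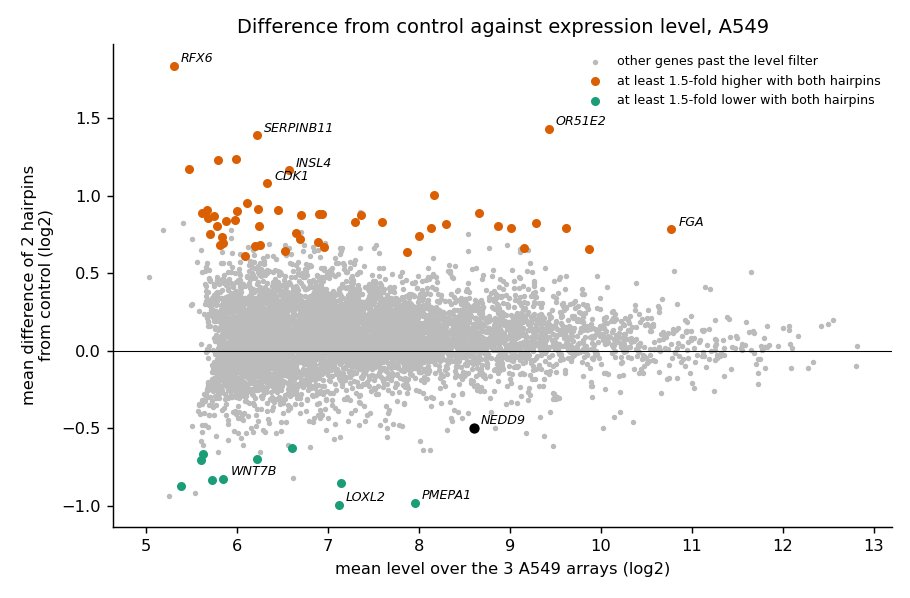
Mean log2 difference of the 2 hairpins from the A549 control (vertical axis) against the mean log2 level over the 3 A549 arrays (horizontal axis) for the 7435 genes past the level filter, 1 point a gene. The 51 genes past 1.5-fold higher with both hairpins (orange) outnumber the 10 lower ones (green), the cloud of other genes (grey) sits slightly above 0 at high levels, and NEDD9 (black) lies at -0.50.

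The gene past the level filter with the highest shared difference was RFX6, a transcription factor needed for pancreatic islet and gut endocrine cells. It was at 4.08 on the control array, 6.17 with hairpin 1 and 5.66 with hairpin 2. Only the hairpin 1 array exceeded its array's median, so the difference of 1.84 ± 0.37 starts from a control value that was not shown to exceed background. No other endoderm transcription factor on the list was past 1.5-fold with both hairpins. Of 25 measured on the list, 4 were higher with both hairpins while 12 lay below control. Among the lower ones, CDX2, the intestinal homeobox factor, was at 5.83 on the control and 5.54 on both hairpin arrays, and PDX1, the pancreatic one, was at 5.86, 5.60 and 5.50.

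Several liver-type plasma proteins, which A549 is known to secrete, were among the higher genes. FGA, FGB and FGG encode the 3 chains of fibrinogen, the clotting protein, and lie side by side in 1 cluster. FGA was at 10.25 on the control array, 11 with hairpin 1 and 11.07 with hairpin 2. For FGB the levels were 9.09, 9.78 and 9.97, and for FGG 8.74, 9.54 and 9.58. In each chain both hairpin arrays lay above the control and close to each other, with mean differences of 0.78 ± 0.05, 0.79 ± 0.13 and 0.82 ± 0.03. The genes that flank the cluster differed less: PLRG1, a splicing factor, by 0.18 and 0.06, and LRAT, an enzyme of vitamin A storage, by -0.15 and -0.15. This comparison of neighbours, and the one for INSL4 below, was chosen after the values were seen.

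Other plasma proteins of that kind were C4BPA and KNG1. C4BPA, an inhibitor of the complement cascade, was at 7.05 on the control array, 7.80 with hairpin 1 and 7.95 with hairpin 2. KNG1, the precursor of bradykinin, was at 5.20, 6.08 and 5.82. In both genes the control was the low array, and the hairpins differed by 0.26 at most. In all, 23 of 46 measured plasma protein genes were higher with both hairpins while 9 lay below control, beside 39.6% and 27.7% of all genes and 53.8% and 21.4% of those past the filter. Of the 71 genes of the whole endoderm and liver list, 6 passed 1.5-fold higher and 0 lower, and its medians were 0.00 and 0.00. SERPINA3, an acute-phase protease inhibitor on the same list, was at 6.63, 6.47 and 6.32, below control with both. CPS1, the first enzyme of the urea cycle, was higher by 0.45 and 0.37, while CPS1-IT1, a transcript from within that gene, was at 6.11, 7.10 and 6.87 and passed 1.5-fold with both.

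INSL4 encodes an insulin-family hormone of the placenta that LKB1-deficient lung cancers are known to express through CRTC coactivators of CREB. It was at 5.79 on the control array, 6.92 with hairpin 1 and 6.99 with hairpin 2. The hairpin arrays lay 2.18-fold and 2.30-fold above a control that was just below its array's median. INSL4 was the sole member past 1.5-fold among 46 genes of the CREB and CRTC list, whose medians were 0.01 and 0.00 with 16 genes higher with both hairpins while 14 lay below control. Its relatives on that list included SIK3, a kinase that restrains CRTC, at 6.03, 6.70 and 6.55. PPARGC1A, a metabolic coactivator, was at 9.55, 10.02 and 9.82. CREB5, a CREB-family factor, was furthest below control on the list by the smaller of its 2 differences, at 6.25, 5.88 and 5.91.

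Next to INSL4 on the chromosome, PLGRKT and CD274 were also higher. PLGRKT, a plasminogen receptor, was at 4.46 on the control array, 5.44 with hairpin 1 and 5.24 with hairpin 2. CD274, the immune checkpoint ligand PD-L1, was at 2.28, 3.09 and 3.03. Both passed 1.5-fold with both hairpins, but all of these values lay below the array medians and were not shown to exceed background. Further out, the kinase gene JAK2 was higher by 0.42 and 0.33, and PDCD1LG2, which encodes PD-L2, differed by 0.10 and -0.10.

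Genes of cell division were above control on both hairpin arrays with few exceptions. CDK1, the cyclin-dependent kinase of mitotic entry, was at 5.61 on the control array, 6.48 with hairpin 1 and 6.89 with hairpin 2. CCNB2, a B-type cyclin that partners CDK1, was at 6.34, 7.08 and 7.37. DTL, which directs the licensing factor CDT1 to destruction in S phase, was at 5.62, 6.42 and 6.64. In all 3 genes the control was lowest and hairpin 2 highest, and the mean differences were 1.08 ± 0.29, 0.88 ± 0.20 and 0.92 ± 0.15. FANCI, a component of the Fanconi anaemia repair pathway, followed at 5.36, 6.0 and 6.08.

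Promoters of genes expressed late in the cell cycle are known for CCAAT boxes, bound by NF-Y, beside a cell cycle genes homology region (CHR), while those of S phase genes are known for E2F sites. RefSeq promoter sequences (GRCh38.p14, 250 bases before to 50 after a gene's start) are shown for 3 cell cycle genes and INSL4, since these lead their lists among genes past the level filter. Capitals mark every match, on either strand, to CHR (TTTGAA or TTCGAA), the CCAAT box (CCAAT), E2F (TTTCCCGC, TTTGGCGC or TTTCGCGC) and CRE, the CREB recognition sequence (TGACGTCA, or the shorter TGACG that it contains). The windows are chr10:60778228-60778527 for CDK1, chr15:59104896-59105195 for CCNB2, chr1:212035498-212035797 for DTL and chr9:5231169-5231468 for INSL4, all on the plus strand.
CDK1: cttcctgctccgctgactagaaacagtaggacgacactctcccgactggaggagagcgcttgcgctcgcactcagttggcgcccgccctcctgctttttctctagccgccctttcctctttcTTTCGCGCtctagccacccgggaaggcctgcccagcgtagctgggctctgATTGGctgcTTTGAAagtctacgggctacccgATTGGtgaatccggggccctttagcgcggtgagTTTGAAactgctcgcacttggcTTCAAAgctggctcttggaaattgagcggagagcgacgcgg
CCNB2: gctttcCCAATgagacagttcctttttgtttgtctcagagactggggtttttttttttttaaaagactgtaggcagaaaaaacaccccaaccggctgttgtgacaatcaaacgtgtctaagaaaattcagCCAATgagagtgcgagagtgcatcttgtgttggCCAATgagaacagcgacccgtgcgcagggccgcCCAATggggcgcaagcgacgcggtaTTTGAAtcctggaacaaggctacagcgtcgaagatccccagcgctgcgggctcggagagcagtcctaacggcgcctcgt
DTL: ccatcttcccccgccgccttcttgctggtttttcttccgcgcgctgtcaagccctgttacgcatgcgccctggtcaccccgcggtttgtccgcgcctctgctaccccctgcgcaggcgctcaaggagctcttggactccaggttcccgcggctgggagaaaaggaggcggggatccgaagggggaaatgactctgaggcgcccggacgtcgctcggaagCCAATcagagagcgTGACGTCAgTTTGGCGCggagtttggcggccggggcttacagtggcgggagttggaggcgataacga
INSL4: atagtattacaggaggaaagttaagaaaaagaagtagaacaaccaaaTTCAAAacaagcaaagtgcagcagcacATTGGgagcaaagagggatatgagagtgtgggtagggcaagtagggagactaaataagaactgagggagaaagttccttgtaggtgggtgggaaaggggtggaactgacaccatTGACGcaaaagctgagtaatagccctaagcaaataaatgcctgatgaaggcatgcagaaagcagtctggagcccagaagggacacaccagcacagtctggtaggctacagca
CDK1 had 3 CHR, 2 CCAAT and 1 E2F match in this window, 1 of its 2 listed promoter windows, and CCNB2 had 1 CHR and 4 CCAAT matches. DTL had 1 full CRE next to 1 E2F match, and 1 CCAAT match. INSL4 had 1 match each to the short element TGACG, CHR and CCAAT. Both motifs together were in 38 of 66 G2/M genes with a promoter (57.6%), in 7.32% of the 11386 measured genes with one and in 6.38% of all 35116 windows. An E2F motif was in 29 of 63 G1/S genes (46.0%), 4.64% of measured genes and 2.74% of windows. The short element TGACG was in 35.7% of measured genes and 24.6% of windows, and the full CRE in 3.23% and 1.85%. A match describes letters only. Of the genes past the filter and 1.5-fold higher with both hairpins, 37 had a promoter. An E2F motif was in 2 of these (5.41%), TGACG in 13 (35.1%) and CHR with CCAAT in 6 (16.2%). The 528 measured genes with an E2F motif had median differences of 0.09 and 0.05, and the 10858 without it 0.02 and 0.00. Over the 487 with it outside the cell cycle and repair lists the medians were 0.08 and 0.03. With CHR and CCAAT together the medians were 0.06 and 0.02 over 834 genes, and 0.04 and 0.01 over the 789 of them outside the cell cycle and repair lists.

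**Figure D2:**
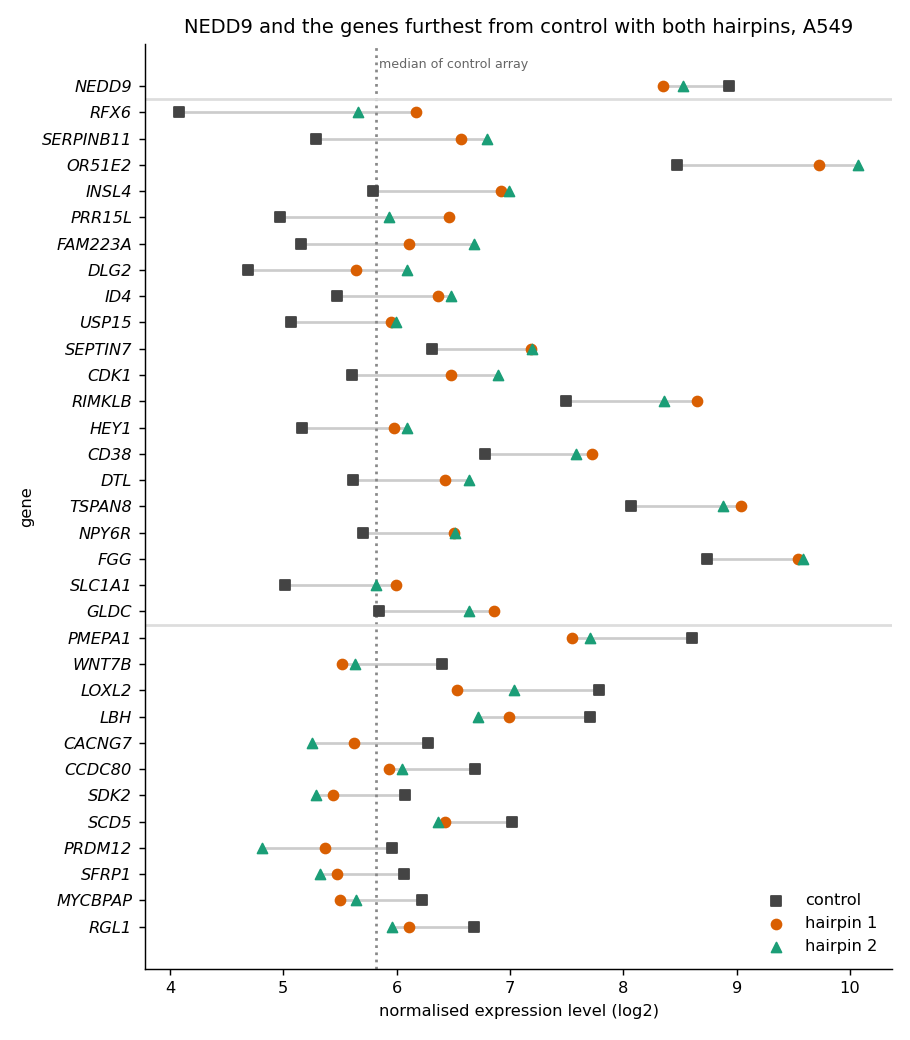
Normalised log2 expression level (horizontal axis) on the A549 control (square), hairpin 1 (circle) and hairpin 2 (triangle) arrays for NEDD9, the 20 genes with the highest and the 12 with the lowest shared difference past the level filter, 1 row a gene. By the choice of these genes, control is the lowest array for every higher gene and the highest for every lower one. RFX6 starts at 4.08 on the control array, and many control values lie left of the dotted control-array median of 5.81.

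Across the G2/M and mitosis list, 72 of 82 measured members lay above control on both hairpin arrays, 5 below it on both and 5 at least 1.5-fold above it. The medians were 0.32 with hairpin 1 and 0.43 with hairpin 2, against 0.02 and 0.00 for all genes. All 15 kinases and cyclins and all 19 spindle, motor and cytokinesis genes were higher with both hairpins. AURKA, the Aurora A kinase that NEDD9 binds, was at 6.41 on the control array, 6.93 with hairpin 1 and 7.18 with hairpin 2. PBK, CENPK and HMMR passed 1.5-fold with both but lay below the array medians, and 39 of the 82 passed the level filter. The 5 members below control were PIMREG, a mitotic regulator (7.76, 7.55 and 7.67), FZR1, an activator of the anaphase-promoting complex (6.44, 6.40 and 6.38), and CENPM, a kinetochore protein (6.05, 6.02 and 5.95), all 3 past the level filter, and 2 at lower levels. The latter were MAD2L1, a spindle checkpoint protein (4.84, 4.42 and 4.79), and CDC25C, the phosphatase that activates CDK1 (3.85, 3.66 and 3.84). Kinetochore and centromere genes were higher with both in 19 of 23. Among phosphatases and anaphase factors the count was 5 of 10.

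The G1/S and replication list had 57 of 74 members higher with both hairpins, 7 lower with both and 3 past 1.5-fold (DTL, CDC6 and EXO1), with medians of 0.20 and 0.22. Origin licensing and helicase genes were higher in 20 of 23 and nucleotide synthesis genes in 8 of 9. CDC6, an origin loading factor, was at 3.55, 4.26 and 4.22. EXO1, a repair exonuclease, was at 3.78, 4.40 and 4.76, all below the medians. The inhibitors of this step lay on the other side. CDKN1B, which encodes p27, was at 8.64 on the control array, 8.24 with hairpin 1 and 8.18 with hairpin 2. CDKN1A, which encodes p21, was at 7.21, 7.02 and 7.12. CCNE1, a G1/S cyclin, was also below control with both hairpins, at 5.97, 5.79 and 5.78. Its relative CCNE2 went the other way, with a mean difference of 0.40.

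DNA repair genes were higher with both hairpins in 30 of 33, lower with both in 1, and past 1.5-fold in 2 (FANCI and, below the array medians, BRIP1), with medians of 0.26 and 0.24. ATR, the replication stress kinase, was at 5.13, 5.74 and 5.58. RAD1, a subunit of the checkpoint clamp, was at 5.87, 6.32 and 6.56. Replication-dependent histones were higher in 29 of 50 and lower in 7, with medians of 0.12 and 0.27, and H2BC8 was the 1 member past 1.5-fold, on the lower side (5.51, 4.79 and 4.33). Histone genes are near-identical copies whose probes can share signal, and their values are uncertain.

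Cilium and centrosome genes, which act where NEDD9 is found outside focal adhesions, were higher with both hairpins in 43 of 57 and lower in 4, with 0 past 1.5-fold. The medians of 0.18 and 0.13 stand beside 0.10 and 0.04 for all genes past the level filter. TCTN1, a protein of the ciliary transition zone, was at 7.03 on the control array, 7.60 with hairpin 1 and 7.56 with hairpin 2. IFT81, of the intraflagellar transport complex, was at 4.82, 5.29 and 5.31. CCP110, which caps centrioles, was at 4.52, 5.04 and 4.95. BBS12, a chaperonin-like protein of the BBSome pathway, was at 4.82, 4.53 and 4.53. Septins, which form a ring at the ciliary base and the cleavage furrow, went in both directions, with 4 of 13 higher and 5 lower. SEPTIN7 alone passed 1.5-fold, at 6.31, 7.19 and 7.19.

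Single genes past 1.5-fold included several regulators of differentiation. ID4, an inhibitor of basic helix-loop-helix factors, was at 5.47 on the control array, 6.36 with hairpin 1 and 6.48 with hairpin 2. HEY1, a repressor induced by Notch and BMP signals, was at 5.16, 5.97 and 6.09, and its relative HEY2, below the array medians, at 4.77, 5.40 and 5.60. In the 3 genes the control was lowest by at least 0.63. The BMP and ID list was mixed, with 13 of 29 higher with both hairpins while 10 lay below control. By role, 3 of 3 SMADs were higher, and 0 of 6 antagonists were higher and 3 lower. Ligands were even, 3 higher and 3 lower of 8, receptors were 2 and 1 of 3, and targets 5 and 3 of 9. These branches are too small to compare. ID3, related to ID4, was at 8.05, 8.55 and 8.50. BMP2, a ligand, was at 6.32, 6.85 and 6.73. Of the Notch list 8 of 22 genes were higher and 7 lower, among the latter HES4 at 6.65, 6.10 and 6.17.

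Further genes past 1.5-fold encode membrane or secreted proteins. OR51E2, an olfactory-type receptor also found in prostate, was at 8.47 on the control array, 9.73 with hairpin 1 and 10.07 with hairpin 2, the highest difference among genes above the median on every A549 array. SERPINB11, of the clade B serpins, was at 5.29, 6.57 and 6.79, and 6 of 9 measured members of that family were higher with both hairpins. TSPAN8, a tetraspanin of digestive epithelia and carcinomas, was at 8.07, 9.04 and 8.88. Tetraspanins as a family were split, with 7 of 21 higher and 9 lower. AGR2, a disulfide isomerase needed for mucin production, was at 8.71, 9.36 and 9.39. It was the 1 gene of 29 on the lung lineage list to pass 1.5-fold. CD38, an enzyme that consumes NAD, was at 6.78, 7.72 and 7.58. TFRC, the transferrin receptor, was at 8.11, 8.82 and 8.68.

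Among enzymes and transporters, GLDC, which cleaves glycine, was at 5.84 on the control array, 6.86 with hairpin 1 and 6.63 with hairpin 2. GCH1, the first enzyme of tetrahydrobiopterin synthesis, was at 5.40, 6.44 and 6.16. SUCLG2, of the citric acid cycle, was at 6.75, 7.52 and 7.63. RIMKLB, a glutamate ligase, was at 7.50, 8.65 and 8.36. In each of these genes both hairpin arrays exceeded the control by more than they differed from each other. Of 277 solute carriers 101 were higher with both hairpins while 78 lay below control, close to the shares of all genes, and 4 passed 1.5-fold. These were the glutamate transporter SLC1A1 (5.02, 5.99 and 5.82), the bicarbonate transporter SLC4A4 (7.75, 8.68 and 8.46), and SLC6A14 and SLC17A4 at lower levels. MAPK4, an atypical MAP kinase, was at 8.33, 9.11 and 9.16. ANKRD1, a YAP target, was at 5.42, 6.42 and 6.10.

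Among the 10 lower genes, PMEPA1 was furthest from control by its smaller difference. It encodes a membrane protein that is induced by TGF-beta and limits its signalling. It was at 8.61 on the control array, 7.55 with hairpin 1 and 7.70 with hairpin 2. Both hairpin arrays lay well below the control, at a mean difference of -0.98 ± 0.11. In the TGF-beta list 25 of 54 genes were lower with both hairpins while 12 were higher, against 27.7% and 39.6% of all genes. By role, 14 of 23 targets and 4 of 7 ligands were lower, while receptors were lower in 1 of 7 and SMADs in 1 of 3. TGFB1, the founding ligand, was at 7.98, 7.58 and 7.38. TGFB2, a second ligand, was at 9.31, 9.02 and 9.03. INHBB, an activin subunit, was at 7.02, 6.47 and 6.79. JUNB, an early target, was at 7.93, 7.54 and 7.55. On the other side were BAMBI, a decoy receptor (8.97, 9.54 and 9.27), and FST, an activin antagonist (6.28, 6.74 and 6.51). USP15, a deubiquitinase known to act on TGF-beta receptors and SMADs, passed 1.5-fold higher at 5.07, 5.95 and 5.99. It was 1 of 37 ubiquitin-specific proteases, of which 26 were higher with both hairpins while 1 lay below control.

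The matrix list held 2 of the 10 lower genes. LOXL2, a lysyl oxidase that crosslinks collagen, was at 7.78 on the control array, 6.54 with hairpin 1 and 7.04 with hairpin 2. The hairpins differed from each other here by 0.50, and the mean difference was -0.99 ± 0.36. CCDC80, a secreted matrix protein, was at 6.69, 5.93 and 6.05. All 4 measured lysyl oxidases, 9 of 20 collagens and 14 of 30 matrix glycoproteins were lower with both hairpins, and 31 of the 62 genes of the list in all, while 10 were higher with both. The median level of the list was 5.44, in the range of the second dimmest group, where 38.6% of genes were lower and 27.5% higher, against 27.7% and 39.6% of all genes. COL12A1, a fibril-associated collagen, was at 5.39, 4.45 and 4.84 but below the medians. FBN2, a fibrillin, was at 7.21, 6.20 and 6.99, and thus low mainly on the hairpin 1 array. VTN, vitronectin, was above control with both hairpins, at 9.11, 9.29 and 9.28. SPP1, osteopontin, was likewise higher, at 10.79, 10.88 and 11.09. The list passed the filter in 26 of 62.

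Proteases and their inhibitors differed by less: 26 of 62 were lower with both hairpins (41.9%), 17 higher with both (27.4%) and 0 past 1.5-fold. The median level of the list, 5.84, lay between those of the second dimmest group (5.13) and the next (6.48). In these groups 38.6% and 24.7% of genes were lower, and 27.5% and 49.2% higher. RECK, a membrane inhibitor of metalloproteases, was at 5.81, 6.29 and 6.0. TFPI, the tissue factor inhibitor, was at 9.27, 9.56 and 9.74. Both inhibitors were highest on a hairpin array. HTRA1, a secreted serine protease, was at 8.76, 8.61 and 8.61.

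Of the WNT list 32 of 70 genes were lower with both hairpins (45.7%), 19 higher with both (27.1%) and 3 at least 1.5-fold lower. Of all genes 27.7% were lower, 39.6% higher and 0.302% at least 1.5-fold lower. The median level of the list, 5.90, lay between those of the second dimmest group (5.13) and the next (6.48). In these groups 38.6% and 24.7% of genes were lower, and 27.5% and 49.2% higher. WNT7B, a ligand of lung development, was at 6.40 on the control array, 5.51 with hairpin 1 and 5.63 with hairpin 2. LBH, a WNT-responsive transcription cofactor, was at 7.71, 6.99 and 6.72. SFRP1, a secreted WNT antagonist, was at 6.06, 5.48 and 5.32. For WNT7B and SFRP1 both hairpin arrays lay below the array median and the differences end at values not shown to exceed background. LBH stayed above it on all 3 arrays. TCF7L1, a nuclear repressor of the pathway, was at 6.14, 5.51 and 5.66. DKK3, a secreted Dickkopf protein, was at 6.62, 6.23 and 6.0. By role, 10 of 21 ligands were lower and 3 higher. Receptors were even, 8 lower and 7 higher of 17. FZD3, a Frizzled receptor, was at 6.24, 6.64 and 6.60. LGR4, a receptor for R-spondins, was at 8.94, 9.45 and 9.21. In the small Hedgehog list 8 of 12 genes were lower and 1 higher, with medians of -0.19 and -0.18. Only 5 of the 12 passed the level filter, and GAS1, IHH and GLI3 among the lower ones did not. SMO, the signal transducer, was at 7.27, 7.08 and 7.08. GLI2, an effector, was at 6.09, 5.82 and 5.85. CDON, a coreceptor, was the exception at 6.01, 6.69 and 6.36.

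The other genes at least 1.5-fold lower belong to neural or lipid functions. CACNG7, a subunit of calcium channels and glutamate receptors, was at 6.28 on the control array, 5.62 with hairpin 1 and 5.26 with hairpin 2. SDK2, a synaptic adhesion protein, was at 6.07, 5.43 and 5.29. PRDM12, a factor of sensory neurons, was at 5.96, 5.37 and 4.81. All 3 passed the filter through the control array alone, since both hairpin arrays were below their medians. This held for 5 of the 10 lower genes. SCD5, a fatty acid desaturase, was at 7.02, 6.42 and 6.36. NTRK3, the neurotrophin-3 receptor, missed the threshold with hairpin 2 at 8.47, 7.69 and 7.98. The neural and synaptic list had 23 of 51 genes lower with both hairpins while 10 were higher, but calcium channel genes lay on both sides. CACNB3, a beta subunit, was at 8.01, 7.51 and 7.41. CACNA2D1, another auxiliary subunit, was at 6.28, 6.83 and 6.83. DLG2, a postsynaptic scaffold, was among the highest genes at 4.69, 5.64 and 6.09.

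Hypoxia and glycolysis genes, 43 of 48 of them past the filter, were lower with both hairpins in 21 and higher with both in 12. NDRG1, a stress-induced protein, was at 9.88 on the control array, 9.36 with hairpin 1 and 9.16 with hairpin 2. HILPDA, a lipid droplet protein, was at 8.65, 8.23 and 8.05. ALDOC, a glycolytic aldolase, was at 5.96, 5.62 and 5.47. Each was highest on the control array, and none passed 1.5-fold with both hairpins. The median differences of the list were -0.01 and -0.04, beside 0.10 and 0.04 for genes past the filter. Without the trend with level they were -0.10 and -0.07, beside -0.01 and -0.01 for genes past the filter. PFKFB2, which raises glycolytic flux, was at 6.23, 6.61 and 6.61.

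Of 49 NF-kB targets and cytokines 22 were lower with both hairpins (44.9%) while 11 were higher (22.4%). Of all genes 27.7% were lower and 39.6% higher, and in the second dimmest group 38.6% and 27.5%. The median level of the list was 6.11. TNFSF15, a TNF-family cytokine, was at 8.40 on the control array, 7.85 with hairpin 1 and 7.78 with hairpin 2. IER3, an early response gene, was at 10.43, 9.99 and 10.02. In both genes the hairpin arrays lay close together below the control. CXCL11, an interferon-induced chemokine, stood apart from them at 3.81, 5.55 and 4.98, below the array medians. XAF1 was the 1 gene past 1.5-fold of 44 interferon-stimulated genes, at 6.42, 7.16 and 7.08, and that list was split at 13 higher and 16 lower.

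Genes of NEDD9's own signalling machinery were split in direction. Among 33 Cas scaffolds and partners 13 were higher with both hairpins while 8 lay below control, and AURKA had the highest shared difference. BCAR1, which encodes the related scaffold p130Cas, was at 7.26 on the control array, 7.16 with hairpin 1 and 7.14 with hairpin 2. NCK1, an adaptor, was at 6.58, 6.83 and 6.90. The focal adhesion list had 12 of 31 higher and 14 lower. TGFB1I1, the adaptor HIC-5, was at 7.28, 6.95 and 6.91. TNS3, a tensin, was at 8.66, 8.34 and 8.42. PARVA, which links integrins to actin, was at 8.53, 8.93 and 8.84. Integrins were lower in 8 of 20 and higher in 4, with ITGA5, of the fibronectin receptor, at 7.53, 7.39 and 7.23. The median level of the integrin list was 5.44, in the range of the second dimmest group. In that group 38.6% of genes were lower and 27.5% higher. ITGA6, of laminin receptors, was at 7.86, 8.09 and 8.17. No gene of these 3 lists was past 1.5-fold with both hairpins.

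Epithelial and mesenchymal genes went in both directions. Epithelial junction and keratin genes were higher in 14 of 45 and lower in 18. EPCAM, an epithelial adhesion molecule, was at 6.56, 7.18 and 6.82. CLDN3, a claudin, was at 7.52, 7.12 and 7.12. Of 20 mesenchymal genes 9 were lower with both hairpins and 4 higher, with TWIST1, a driver of epithelial-mesenchymal transition, at 5.58, 4.95 and 5.10, below the medians. The mesenchymal list had a median level of 5.54, and in the second dimmest group 38.6% of genes were lower and 27.5% higher. NT5E, the ectoenzyme CD73, was at 7.66, 8.19 and 8.01.

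**Figure D3:**
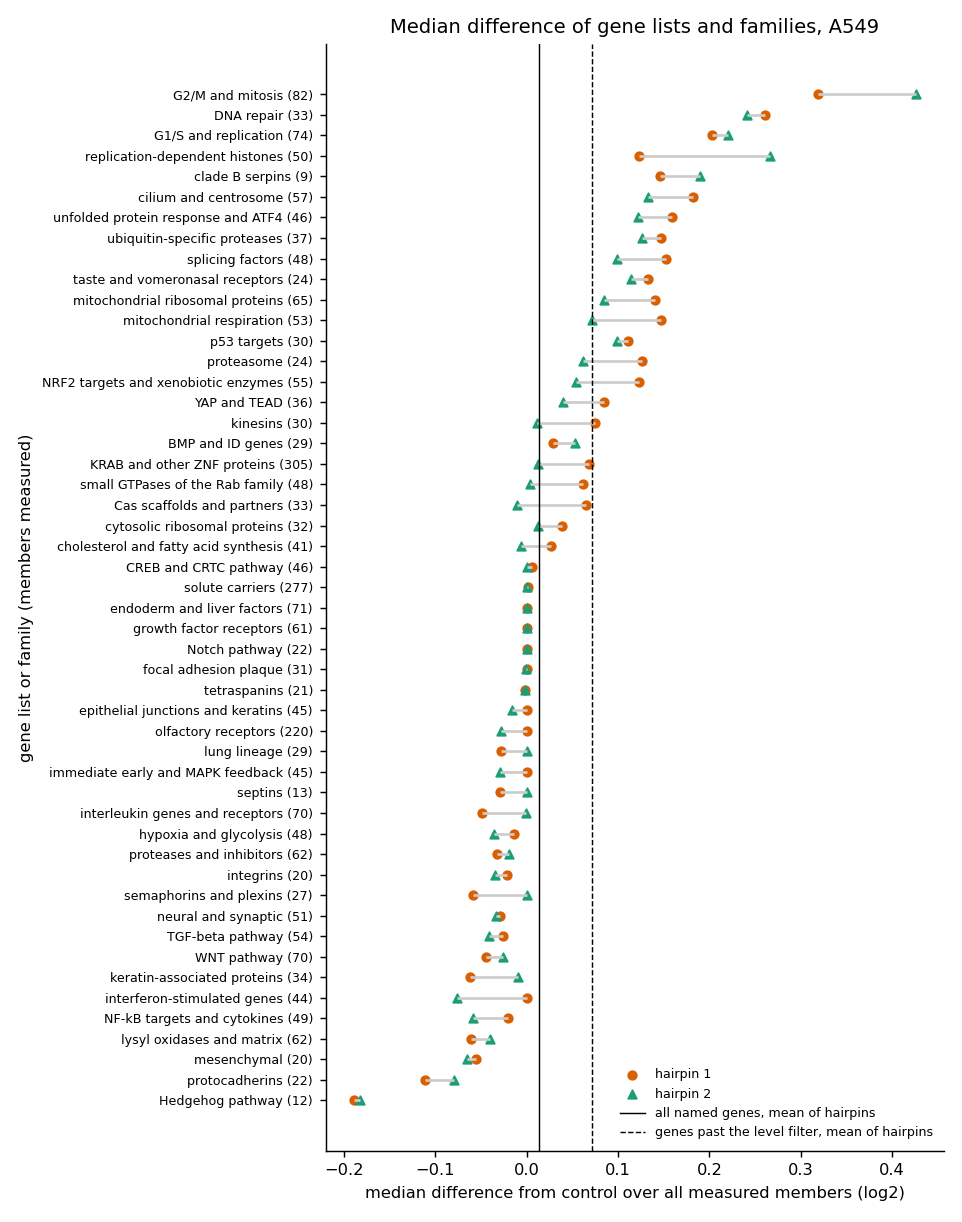
Median log2 difference from the A549 control over all measured members (horizontal axis) of the gene lists and families shown, with hairpin 1 as circles and hairpin 2 as triangles and the number of members in brackets. G2/M genes are furthest right at 0.32 and 0.43 and Hedgehog genes furthest left at -0.19 and -0.18, with 5 of 12 Hedgehog genes past the level filter. Lines give the median of all named genes (solid) and of genes past the level filter (dashed).

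Several groups of bright housekeeping genes were higher by amounts near the offset of bright genes. Mitochondrial ribosomal proteins were higher with both hairpins in 50 of 65 and lower in 3, with medians of 0.14 and 0.08. With the trend with level removed these medians were 0.04 and 0.04. Proteasome subunits were higher in 20 of 24 (medians 0.13 and 0.06, or 0.02 and 0.00 without the trend), splicing factors in 36 of 48 (0.15 and 0.10, or 0.03 and 0.04) and respiratory chain genes in 33 of 53 (0.15 and 0.07, or 0.03 and 0.02). SRSF3, a splicing factor, was at 8.03 on the control array, 8.59 with hairpin 1 and 8.56 with hairpin 2. SDHC, a subunit of succinate dehydrogenase, was at 8.33, 9.16 and 8.82. Genes of the unfolded protein response and ATF4 were higher in 35 of 46 and lower in 3 (medians 0.16 and 0.12, or 0.07 and 0.07 without the trend). DDIT3, the stress factor CHOP, was at 7.08, 7.47 and 7.33. ASNS, asparagine synthetase, was at 8.54, 8.88 and 8.95, and the sensor ATF6 at 8.26, 8.70 and 8.61. Of 30 p53 targets 18 were higher and 6 lower, with MDM2 at 7.06, 7.48 and 7.44 and CDKN1A below control, as given above.

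Families with almost no member past the level filter show how values behave near background. Of 220 olfactory receptors 3 passed the level filter, yet 7 lay at least 1.5-fold above control with both hairpins and 6 at least 1.5-fold below, with 60 higher and 72 lower in all. OR1E1 was at 4.33 on the control array, 5.85 with hairpin 1 and 5.70 with hairpin 2. OR52I2 was at 3.60, 2.81 and 2.56. Both directions were thus about equally common in this family. Among taste and vomeronasal receptors 3 of 24 passed 1.5-fold higher and 0 lower. TAS2R20 was at 3.45, 5.47 and 5.08 and its neighbour TAS2R50 at 3.65, 4.82 and 4.59, but these receptors have near-identical copies whose probes can share signal. Differences past 1.5-fold below the filter are therefore given as values only.

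The hairpins also differed from each other, a comparison that does not involve the control. Among genes past the filter 42 were at least 1.5-fold higher with hairpin 1 than with hairpin 2 and 24 the other way. Against the control, hairpin 1 had 187 genes higher and 39 lower, and hairpin 2 had 99 and 36. The SD of the difference across these genes was 0.24 for hairpin 1 against control, 0.20 for hairpin 2 against control and 0.17 between the hairpins. RMA gave 512 of the 7435 genes (6.89%) the same value on both hairpin arrays, none of them among the 61 counted past 1.5-fold. CHGB, a protein of secretory granules, was at 8.21, 9.08 and 7.87. NTS, the peptide neurotensin, was at 8.78, 9.03 and 8.09. TCN1, a vitamin B12 carrier of secretions, was at 7.35, 8.16 and 7.12 and the membrane protein gene MS4A8 at 4.71, 6.02 and 4.36. In these genes the hairpin 1 array was the high one. In the other direction, CYP1B1, an enzyme of the aryl hydrocarbon response, was at 7.44, 6.97 and 7.97. FDPS, of isoprenoid synthesis, was at 6.43, 5.75 and 6.77. BHLHA15, a factor of secretory cells, was at 6.60, 6.09 and 6.98. Here the hairpin 1 array lay below that of hairpin 2. No test is possible with 1 array per hairpin.

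The CRL-5907 arrays give the opposite manipulation in another cell line and share no array with the A549 comparison. There NEDD9 was at 4.66 on the control and 9.49 with overexpression. With 1 array per condition there is no test, and line and manipulation cannot be told apart. Of the 51 genes higher with both hairpins 35 were above their control with overexpression, 15 below and 1 equal to it, where 59.0% of all genes past the filter were above. In size, 9 of the 51 were at least 1.5-fold higher with overexpression too and 3 at least 1.5-fold lower, where 3.28% and 0.82% of all genes past the filter were. The 9 were the cell cycle and repair genes CDK1, CCNB2, DTL and FANCI, and ANKRD42, COX20, FAM223A, OR51E2 and RIMKLB. FAM223A has a near-identical copy, and its value is uncertain. CDK1 was higher by 0.91, FANCI by 0.85, DTL by 0.85 and CCNB2 by 0.63 with overexpression. The G2/M list had a median of 0.35 there and the G1/S list 0.27, so the medians of these lists were above 0 under both manipulations. The 3 opposite genes were KNG1, MAPK4 and PRR15L. PRR15L, a proline-rich protein, was at 4.97, 6.46 and 5.93 on the A549 arrays, and differed by -0.73 with overexpression.

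Of the 10 lower genes 4 were above and 6 below their control with overexpression. LOXL2 alone of the 10 was past 1.5-fold higher, by 0.71, beside the 3.28% of all genes past the filter, and PMEPA1 was higher by 0.52. NDRG1 and TNFSF15, which missed the 1.5-fold threshold with hairpin 1, were higher by 0.64 and 0.66. These values also stand beside the 3.28% of all genes past the filter that were at least 1.5-fold higher there. NDRG1 and TNFSF15 are not among the 10 and do not alter the counts of 4 above and 6 below. They were not the genes nearest to the 10, since MYCBPAP, RGL1 and AGRP lay closer to the threshold. The cilium and centrosome list had a median of 0.00 with overexpression, and genes of the unfolded protein response one of -0.09.

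**Figure D4:**
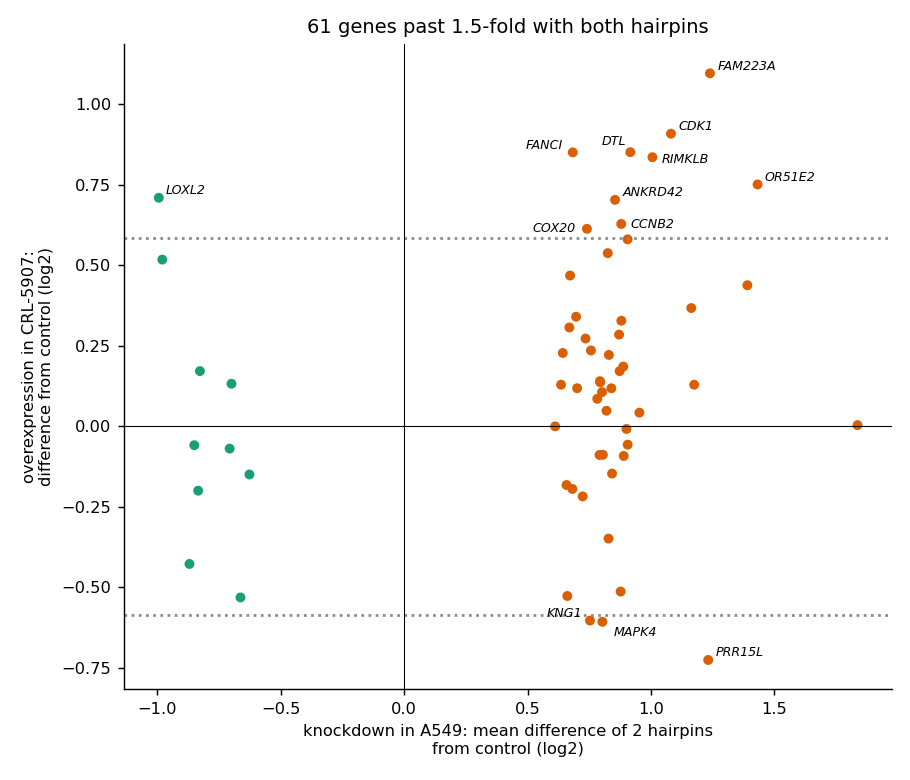
Log2 difference of the CRL-5907 overexpression array from its control (vertical axis) against the mean difference of the 2 hairpins from the A549 control (horizontal axis) for the 61 genes past 1.5-fold with both hairpins, 1 point a gene, dotted lines at 1.5-fold. LOXL2 is the 1 lower gene (green) past 1.5-fold with overexpression, at 0.71, while 9 higher genes (orange) lie above the upper line and 3 below the lower one.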

How the data were processed

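Trizol-extracted total RNA, after removal of ribosomal RNA, was made into labelled sense-strand cDNA and hybridised to 1 array per sample, per the labels' protocols. The deposited values are log2 expression levels of 22011 features, made by the authors, per the submitters' processing notes, with Affymetrix Power Tools and RMA, which normalises the arrays of a run together and can assign equal values to several of them. Versions and genome build are not given in the sources used here. The log base was read from the range of the values, and detection above background is unknown, so the number of arrays limits the precision.

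Genes were named through the platform annotation, of which 14404 of 14432 features with 1 symbol matched RefSeq. For 197 genes with several features the brightest by mean over the 5 arrays was taken. The hairpin 2 array is described as NEDD10 knockdown in 1 label field, but its title gives NEDD9 and was followed. Each hairpin array minus the control array gave a log2 difference, and a gene was counted when both were past 1.5-fold in 1 direction. limma 3.58.1 in R 4.3.3 (lmFit, eBayes with trend, Benjamini-Hochberg at 0.05) compared knockdown (n = 2) with control (n = 1), assuming that the control varies like the hairpin arrays. The step was also run on simulated data with 1 common SD for all genes and arrays, which cannot check that assumption. The spread behind the p-values comes only from the 2 hairpin arrays, moderated across genes, and holds no error of the control array. Lists are described by counts and medians without a test, and 1 list is not reported here. Named genes are NEDD9 and STK11, the 40 highest and 20 lowest past the level filter by the smaller difference, up to 6 leaders of each of 40 lists and 15 families in each direction, the 8 furthest apart between hairpins each way, the genes past 1.5-fold under both manipulations, and the leading features without a single symbol. Others named were chosen after their values were seen. The members and lists were chosen with earlier results of these data known. Alternatives were centring, quantile normalization, removal of the trend with level, the mean of a gene's features, other filters and fold thresholds, either hairpin alone, and for limma no trend, filtered genes and all 5 arrays.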

Additional observations from a re-analysis of the deposited data

How the results depend on the processing

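The counts of genes higher and lower with both hairpins moved most with the thresholds. They were 51 and 10 as reported, 113 and 43 without a level filter, 40 and 6 with the filter on the mean of the 3 A549 arrays, 20 and 3 with the filter at the 75th percentile, 4 and 0 at a fold threshold of 2, and 260 and 71 at 1.3. A further quantile normalization gave 41 and 17, centring 43 and 14, removal of the trend with level 41 and 15, and the mean of a gene's features 53 and 10. Without 1 hairpin the higher count ranged from 99 to 187 and the lower from 36 to 39. limma called 0 genes at an adjusted p under 0.05 under each of its 4 settings, with 1301 to 2240 genes at an unadjusted p under 0.05 and a lowest adjusted p between 0.269 and 0.277. Of 89 named genes past 1.5-fold with both hairpins, 85 to 87 stayed past it under centring, quantile normalization, trend removal and the mean of features. Of these 89 genes, 0 changed sign under these settings, and a change of sign was not assessed for the other named genes. Of all 603 named genes, 203, 245, 240 and 10 in turn moved by more than their SD over the hairpins. Centring and trend removal turned the small positive medians of some lists, such as Cas scaffolds and partners (0.03 as reported, -0.01 and -0.06), and their direction is not read. No paired analysis was possible because there is 1 A549 control array and its label gives no replicate number. With 1 control array no alternative can leave it out.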

Other observations

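Features without a single gene symbol entered none of the comparisons. Of 5171 with none, 2248 passed the level filter, 75 exceeded the control 1.5-fold with both hairpins and 8 lay 1.5-fold below it. Of 2408 with several symbols, 1136 passed, 16 were higher and 4 lower. Feature 3475094, unnamed here, was at 4.90 on the control array, 6.70 with hairpin 1 and 6.54 with hairpin 2. Feature 3016148, also unnamed, was at 8.43, 6.44 and 6.97, below control by more than any gene with a single symbol past the filter. A feature shared by LCE1D, LCE1C and LCE1A, genes of the skin barrier, was at 7.61, 6.54 and 6.41. One shared by SSX1, SSX5 and SSX8P, of the cancer-testis group, was at 8.20, 7.44 and 7.09, and its genes cannot be told apart.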
